A study of Mus musculus with 96 samples.

Results

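Glutathione S-transferases join the tripeptide glutathione to reactive or foreign molecules so that the cell can export them, a step known as phase II detoxification. In liver the cytosolic enzymes fall into classes named mu, alpha, pi and theta, which differ in the substrates they favour. The account below covers 10 genes of this family out of 25095 genes in the deposited tables: Gstm1, Gstm2, Gstm3 and Gstm4 of the mu class, Gsta2, Gsta3 and Gsta4 of the alpha class, Gstp1 of the pi class, and Gstt1 and Gstt2 of the theta class. They were taken by gene symbol, and the transcript with the highest mean stood for each gene. All 10 passed the filter on low values, over 5 RPKTM (reads per kilobase of transcript, scaled to a fixed total of mapped reads) in at least 3 libraries, in the tables of hepatocytes and of liver macrophages.

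The study asked how the nuclear receptors REV-ERBα and REV-ERBβ, repressors of the circadian clock encoded by Nr1d1 and Nr1d2, and SCAP, the escort protein that sterol-responsive transcription factors need for activation, shape daily gene expression in mouse liver. Control mice had the same kind of floxed alleles and were given AAV-TBG-GFP, a virus that makes a fluorescent protein in hepatocytes. In RevDKO both receptors, in RevScapTKO both receptors and Scap, and in ScapKO Scap alone were deleted with AAV-TBG-Cre, in which a hepatocyte promoter drives the recombinase, so cells other than hepatocytes were not targeted. All animals were male C57BL/6J mice on a 4-week high fat and sucrose diet, and every genotype had 3 libraries at each of ZT4, ZT10, ZT16 and ZT22 (hours after lights on) for hepatocytes and for liver macrophages. ScapKO sits in tables that were normalized apart and was therefore described only within itself.

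Scap averaged 495 ± 73.1 RPKTM (SD, n = 12) in Control hepatocytes and 209 ± 63.5 in RevScapTKO (limma log2 change -1.30, called). Neither REV-ERB gene was lower in the libraries labelled RevDKO. Nr1d1 was at 138 ± 108 RPKTM against 90.7 ± 119 in Control (log2 change 1.55, called) and Nr1d2 at 312 ± 116 against 228 ± 141 (0.62, limma adjusted p = 0.0626), and in RevScapTKO both were called higher, by 1.79 and 0.95. The paper, in contrast, reports that both receptors were strongly reduced in hepatocytes. RPKTM is taken over the whole transcript and not over the deleted part alone, and the reason for the difference was not tested. The RNA levels found here do not check the labels, so RevDKO and RevScapTKO stand below for the libraries so labelled. In ScapKO hepatocytes, which have no Control in their table, Scap averaged 382 ± 202 RPKTM, with 1006 in the ZT22 replicate 2 library against at most 380 in the other 11. Of 12 macrophage markers all rose in RevScapTKO against Control hepatocytes, with their mean log2 level going from 6.00 ± 1.16 (range 4.11 to 7.78) to 7.22 ± 0.91 (5.92 to 8.56), while the 10 hepatocyte markers were at 14.7 ± 0.10 and 14.7 ± 0.26. In RevDKO the macrophage markers were at 6.09 ± 0.80 and none of the 12 was called. Macrophage libraries held the hepatocyte markers at 12.1 ± 0.48 in Control, 12.1 ± 0.44 in RevDKO and 11.9 ± 0.57 in RevScapTKO. The ScapKO libraries titled as hepatocytes carry a macrophage label in another field, and their hepatocyte markers averaged 15.4 ± 0.21 against 5.85 ± 0.73 for macrophage markers, as in the other hepatocyte libraries. In such bulk samples, fewer cells of a type and less RNA per cell cannot be told apart.

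The mu genes lie side by side on chromosome 3 of the mm9 genome and resemble each other closely, which bears on how far reads can be assigned. They run from Gstm3 (chr3:107766614-107772092) through Gstm2 and Gstm1 to Gstm4 (chr3:107843326-107847774), all on the minus strand. Gsta3 lies on chromosome 1 (chr1:21230666-21255656), Gsta4 and Gsta2 on chromosome 9, Gstp1 on chromosome 19, and Gstt1 (chr10:75246558-75261329) near Gstt2 on chromosome 10. The stretches shown here are the most alike 60 coding bases that lie within 1 exon, the fourth of each gene on the minus strand, with bases that differ from Gstm1 in capitals. They come from the GENCODE M1 transcripts and matched the mm9 genome.
Gstm1 (chr3:107819444-107819503): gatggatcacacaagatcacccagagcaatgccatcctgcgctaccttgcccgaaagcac
Gstm3 (chr3:107770691-107770750): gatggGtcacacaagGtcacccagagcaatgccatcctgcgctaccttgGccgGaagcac
Gstm4 (chr3:107846445-107846504): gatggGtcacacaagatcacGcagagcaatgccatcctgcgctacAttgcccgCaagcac
Gstm2 (chr3:107788172-107788231) holds the same 60 bases as Gstm1, and Gstm3 and Gstm4 each differ from it at 4. Over the whole coding sequence Gstm1 was 89.5% identical to Gstm3, 86% to Gstm2 and 80.2% to Gstm4. Of the 50-base windows along the transcript, 14.8% in Gstm1, 5.62% in Gstm2 and 17.3% in Gstm3 also occurred in a protein-coding transcript of another gene, against none in Gstm4. At 100 bases these shares were 1.68%, none and 3.55%. Gstm3 shared 9.23% of its 50-base windows with Gstm1 and 8.11% with Gstm6, a further mu gene. Its level is uncertain wherever the counting could split reads between them.

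The most shared sequences belong to Gstp1 and Gsta2, shown as the 60 coding bases that are the same in their closest copies, Gstp2 (chr19:4041611-4041670) and Gsta1 (chr9:78080047-78080106).
Gstp1 (chr19:4037317-4037376, exon 3, minus strand): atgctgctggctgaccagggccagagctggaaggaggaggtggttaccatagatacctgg
Gsta2 (chr9:78189664-78189723, exon 2, minus strand): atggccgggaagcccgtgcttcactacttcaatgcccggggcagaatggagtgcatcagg
Gstp1 shared 68.3% of its 50-base windows with Gstp2, and Gsta2 shared 65.4% with other genes, chiefly Gsta1 and 2 predicted genes. Their levels are therefore uncertain wherever the counting could split reads between copies. The deposited level of Gstp2 was low in hepatocytes, at most 24.1 RPKTM against 325 RPKTM or more for Gstp1, and Gsta1 reached 37.8 RPKTM only in RevScapTKO, where Gsta2 reached 56.3 RPKTM. Within the protein-coding transcripts searched, Gsta3, Gsta4, Gstt1 and Gstt2 shared no 50-base window with any other gene. Non-coding transcripts and pseudogenes outside that set were not searched.

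In Control hepatocytes the 10 genes spanned a wide range of RPKTM, a level per transcript length that can be set side by side between genes. Gsta3, an alpha enzyme, led with 2826 ± 510.2 RPKTM (SD, n = 12). Gstp1 followed with 804 ± 202 and Gstm1, the main mu gene of liver, with 719 ± 227, and the ranges of these neighbours overlapped. Gstt1, the theta enzyme that acts on small halogenated compounds, was at 412 ± 94.7 and its lowest library lay above every Gstt2 library. Gstt2 (82.1 ± 28.7), Gsta4 (57.7 ± 22.3), Gstm4 (36.9 ± 16.6), Gstm3 (26.8 ± 10.6), Gstm2 (22.7 ± 8.30) and Gsta2 (15.0 ± 6.17) formed the low end, and each of these overlapped the next in order. In RevScapTKO hepatocytes the order differed: Gstm1 stood at the top with 2222 ± 1245 RPKTM, ahead of Gsta3 with 1279 ± 456, with Gstp1 (1128 ± 332) and Gstm3 (553 ± 759) next, and the ranges of neighbours in that order overlapped.

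**Figure D1:**
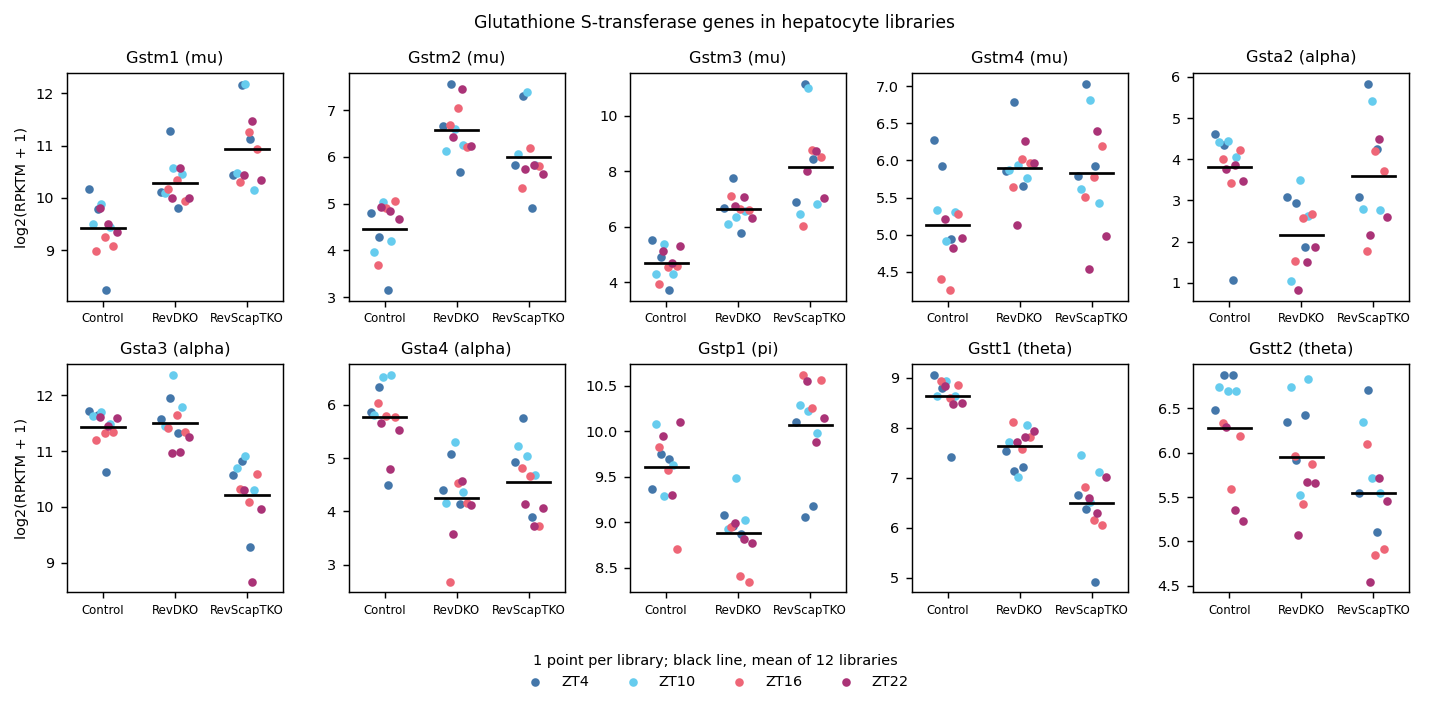
Level of each of the 10 genes in hepatocytes, as log2(RPKTM + 1) on the vertical axis, in the 12 libraries of Control, RevDKO and RevScapTKO, with 1 point per library coloured by time and a black line at the mean. All 12 RevDKO points lie above all 12 Control points for Gstm2 and Gstm3, and the 12 RevScapTKO points of Gsta3 lie below the 12 of RevDKO.

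Hepatocytes labelled RevDKO were compared with Control on the mean over the 4 times. The mu genes were higher and several genes of the other classes were lower: 4 rose, 4 fell, and Gsta3 and Gstt2 did not pass the test. These 8 of 10 calls (limma, Benjamini-Hochberg adjusted p under 0.05 over 13326 genes) stand beside 4.43% of all genes called in this comparison, 2% higher and 2.43% lower.

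Gstm2 ranged from 7.87 to 32.5 RPKTM with a median of 25.7 in Control and from 50.5 to 189 with a median of 90.8 in RevDKO. The 2 sets of libraries did not overlap, and the difference was 2.1 ± 0.25 on the log2(RPKTM + 1) scale (SE, limma adjusted p = 5.52e-07). Gstm3 ran from 12.1 to 44.6 RPKTM (median 23.9) in Control and from 53.8 to 213 (median 97.4) in RevDKO, again with no overlap, a log2 change of 1.94 ± 0.43 (limma adjusted p = 0.00389). Across all genes, 0.158% were higher and 0.203% lower in RevDKO with no overlap between the 12 and 12 libraries. Gstm1 and Gstm4 rose less and did overlap, by 0.86 ± 0.23 (limma adjusted p = 0.0205) and 0.77 ± 0.21 (limma adjusted p = 0.0265). Without the RevDKO ZT4 replicate 2 library Gstm1 missed the threshold (limma adjusted p = 0.0536), and Gstm4 missed it (up to 0.0654) without any 1 of Control ZT4 replicate 3, Control ZT10 replicate 2, Control ZT16 replicates 1 and 2, RevDKO ZT4 replicate 2 and RevDKO ZT22 replicate 2.

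Gsta4, which clears the lipid peroxidation product 4-hydroxynonenal, had a median of 54.9 RPKTM (21.5 to 93.6) in Control and 18.3 (5.44 to 38.5) in RevDKO. It fell by 1.51 on the log2 scale (SE 0.23, limma adjusted p = 3.89e-05), and 8 of the 12 RevDKO libraries lay below every Control library. Gstt1 fell from 412 ± 94.7 to 204 ± 48.2 RPKTM, a log2 change of -1.0 ± 0.18 (limma adjusted p = 0.000358). Gstp1, the single pi member, fell from a median of 811 RPKTM (417 to 1099) to 490.3 (325 to 718), by 0.72 on the log2 scale (SE 0.13, limma adjusted p = 0.00072). Gsta2 fell from 15.0 ± 6.17 to 4.23 ± 2.92 RPKTM (-1.64 ± 0.40, limma adjusted p = 0.0115), and for both genes the libraries of the 2 genotypes overlapped. Gsta3 was at 2826 ± 510.2 and 3016 ± 913 RPKTM, with a log2 change of 0.07 ± 0.17 that did not pass the test, and Gstt2 at 82.1 ± 28.7 and 65.2 ± 25.6 (-0.33 ± 0.19). With the macrophage marker level in the fit the same 8 members were called. With no filter on low values Gsta2, Gstm1 and Gstm4 missed the threshold (limma adjusted p of 0.0525, 0.0836 and 0.0874).

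Deletion of Scap on top of the REV-ERBs was read as RevScapTKO against RevDKO. These comparisons share the RevDKO libraries with those above. Gsta3 fell and Gstp1 rose, Gstt1 fell further, and Gstm3, Gstm1 and Gsta2 were higher, so that 6 of 10 genes were called, 4 higher and 2 lower, beside 26.2% of all genes (13.5% higher and 12.7% lower). Gsta3 ranged from 404 to 1929 RPKTM with a median of 1272 in RevScapTKO, below all RevDKO libraries (1988 to 5279), a log2 change of -1.30 ± 0.17 (limma adjusted p = 9.63e-07). Among all genes, 0.69% were lower and 0.0675% higher with no overlap. Gstp1 rose from a median of 490.3 RPKTM (325 to 718) to 1161 (534 to 1572), by 1.18 ± 0.13 on the log2 scale (limma adjusted p = 8.41e-08), and 10 of the 12 RevScapTKO libraries lay above every RevDKO library. Gstt1 was at 97.0 ± 38.2 RPKTM against 204 ± 48.2 (-1.14 ± 0.18, limma adjusted p = 2.06e-05).

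Gstm3 varied widely in RevScapTKO hepatocytes. Its libraries ran from 65.0 to 2274 RPKTM with a median of 303, and the highest were replicate 2 at ZT4 (2274) and at ZT10 (2021), while the other 10 stayed at or below 429. Against RevDKO the log2 change was 1.52 ± 0.43 (limma adjusted p = 0.00909), and the ratio of medians, 3.11, was smaller than the ratio of means, 5.27. The same 2 libraries held the highest Gstm1, with 4584 and 4671 RPKTM, and the highest Gsta2, with 56.3 and 42.1 RPKTM. Gstm1 rose by 0.67 ± 0.23 (limma adjusted p = 0.03) and missed the threshold without RevDKO ZT4 replicate 1 or 3 or without replicate 2 of RevScapTKO at any of the 4 times, with a limma adjusted p of at most 0.0764. It also missed it with no filter (0.0682). Gsta2 was higher by 1.4 ± 0.40 (limma adjusted p = 0.00965), and its near copy Gsta1 also rose, from 0.14 ± 0.34 to 7.56 ± 11 RPKTM. Gstm2 was lower by 0.59 ± 0.25 without passing the test (limma adjusted p = 0.0801), and it passed without RevDKO ZT4 replicate 3, RevScapTKO ZT4 replicate 2 or RevScapTKO ZT10 replicate 2 (at most 0.0374). Gstt2 (-0.41 ± 0.19, limma adjusted p = 0.115) passed without RevDKO ZT10 replicate 2, RevScapTKO ZT4 replicate 2 or RevScapTKO ZT16 replicate 1 (at most 0.0426).

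Of the macrophage, endothelial and stellate markers, 12 of 12, 4 of 6 and 5 of 5 rose in RevScapTKO against RevDKO hepatocyte libraries. With the macrophage marker level as a covariate, 2 of the 6 members stayed called, Gsta3 (-0.96, limma adjusted p = 0.00734) and Gstp1 (1.40). The other 4 kept their direction and missed the threshold: Gstt1 at -0.71 (limma adjusted p = 0.0898), Gsta2 at 1.14 (0.407), Gstm1 at 0.46 (0.621) and Gstm3 at 0.63 (0.73). The marker level and the genotype move together in this contrast, and their parts cannot be told apart.

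Against Control, RevScapTKO hepatocytes had all 10 genes but Gsta2 called, 5 higher and 4 lower, beside 35.9% of all genes, 17.3% higher and 18.7% lower. Gstm3 was higher in 12 of 12 libraries than in any Control library, with a log2 change of 3.46 ± 0.43 (limma adjusted p = 2.26e-07) and a ratio of medians of 12.7. Of all genes, 0.225% were higher and 0.765% lower without overlap. Gstt1 libraries ran from 29.3 to 176 RPKTM, 11 of them below every Control library, and it fell by 2.14 on the log2 scale (SE 0.18, limma adjusted p = 5.87e-11). Gstm1 (1.53 ± 0.23), Gstm2 (1.52 ± 0.25), Gstm4 (0.70 ± 0.21) and Gstp1 (0.47 ± 0.13) rose, and Gsta3 (-1.23 ± 0.17), Gsta4 (-1.21 ± 0.23) and Gstt2 (-0.73 ± 0.19) fell. Gstp1 was below Control in RevDKO and above it in RevScapTKO. With the macrophage marker level in the fit 6 stayed called, and Gsta4, Gstm4 and Gstt2 did not.

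**Figure D2:**
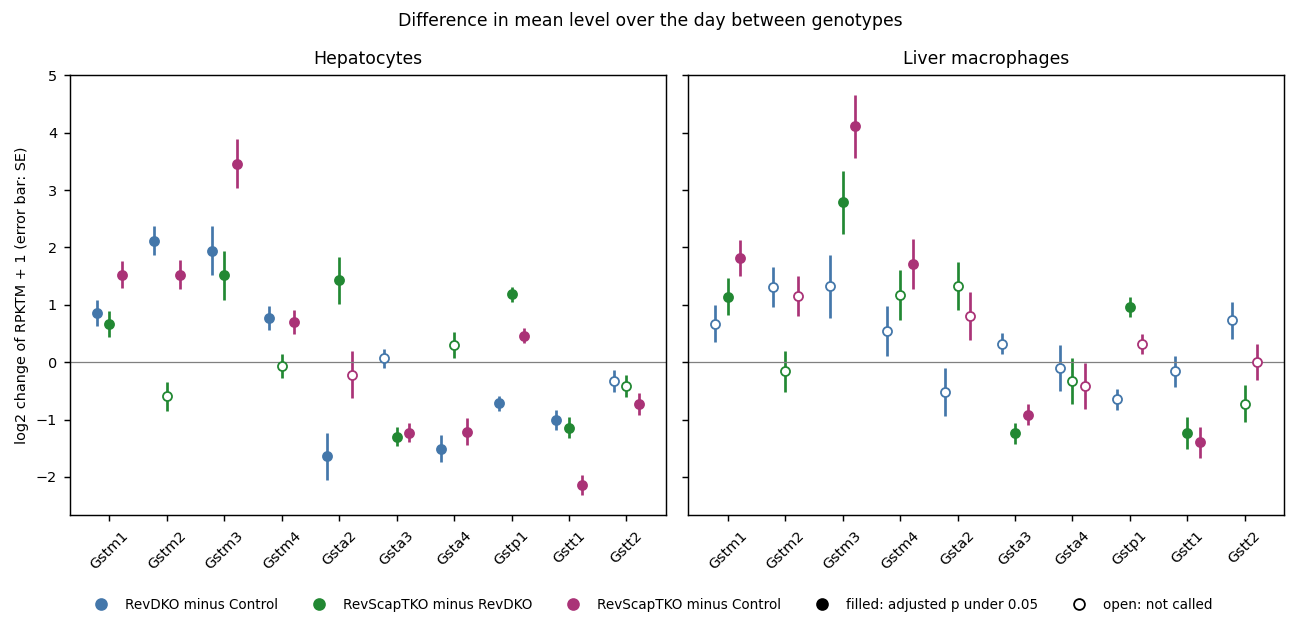
Difference in the mean level over the day for each gene, as log2 change of RPKTM + 1 with its SE, in hepatocytes (left) and liver macrophages (right), with filled points for a limma adjusted p under 0.05. In hepatocytes the mu genes lie above 0 in RevDKO minus Control and RevScapTKO minus Control, Gstt1 lies below 0 in all 3 contrasts, and Gstp1 changes sign between contrasts.

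The summed RPKTM of the 10 genes was 5001 ± 855 in Control, 5350 ± 1290 in RevDKO and 5504 ± 2198 in RevScapTKO hepatocytes, and its make-up by class differed. The mu genes held 15.8% ± 2.81 of the sum in Control (11.4 to 21.6%), 29.1% ± 5.57 in RevDKO (22.1 to 40.7%) and 49.2% ± 16.1 in RevScapTKO (31.7 to 73.1%). The Control libraries overlapped neither of the others. The alpha genes held 57.8% ± 2.86, 56.3% ± 5.81 and 25% ± 8.17, nearly all of it Gsta3. The theta share was 9.93% ± 1.53 in Control and 2.95% ± 1.39 in RevScapTKO. A share is taken within a library, so a factor that scales all genes of a library leaves it as it is. The quantile normalization of these values is not such a factor and can alter a share.

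**Figure D3:**
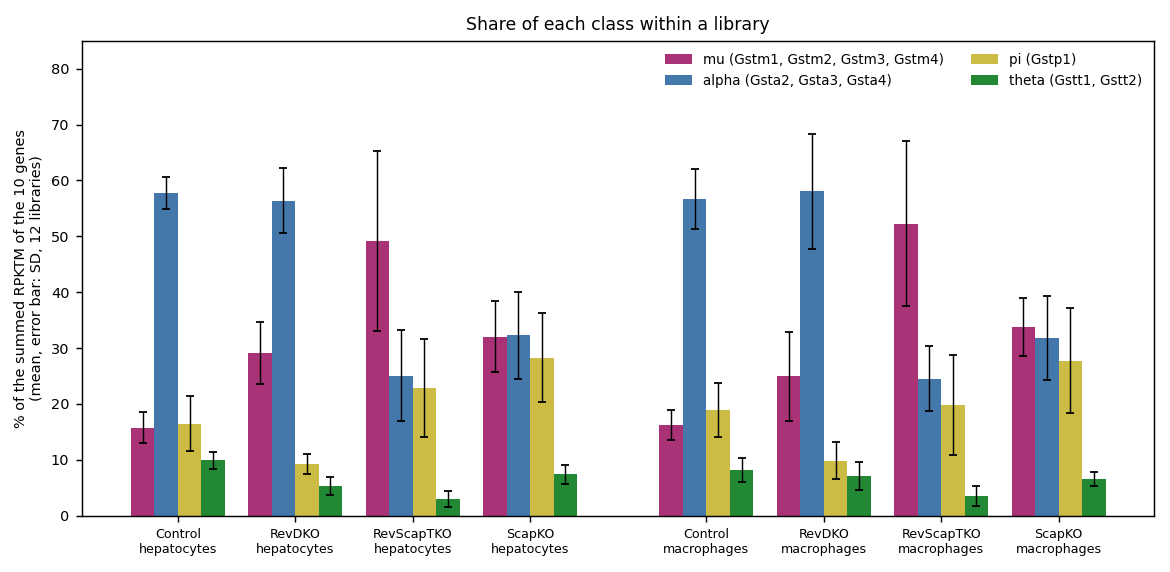
Share of each class in the summed RPKTM of the 10 genes, in percent (bars, mean of 12 libraries; error bars, SD), for each genotype in hepatocytes and macrophages. The mu bar rises from 15.8% in Control to 49.2% in RevScapTKO hepatocytes as the alpha bar falls from 57.8% to 25%, and the macrophage bars have a like order. ScapKO was normalized apart.

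Taken by time, RevDKO against Control hepatocytes had 3 calls among the 10 genes at 4 times: Gstm2 at ZT4 (2.56) and ZT10 (1.92), and Gsta4 at ZT16 (-2.08). The call of Gstm2 at ZT10 was marginal (limma adjusted p = 0.0487): it held in 11 of 36 fits without 1 library (up to 0.252) and was lost with pseudocounts of 0.1 and 10, with no filter and with a filter at 20 RPKTM. Gsta4 at ZT16 held in 31 of 36 (up to 0.347) and was lost with no filter, and Gstm2 at ZT4 held in 35. Over all genes and times 0.64% of pairs were called. RevScapTKO against Control had 14 such calls beside 7.52% of pairs, and Gstt1 was lower at all 4 times, from -1.70 at ZT10 to -2.45 at ZT16. Against RevDKO there were 6 beside 3.48%, namely Gstp1 at ZT16 (1.91) and ZT22 (1.34), Gsta3 at ZT4 (-1.39) and ZT22 (-1.43), and Gstt1 at ZT4 (-1.31) and ZT16 (-1.49). With the macrophage marker level in the fit, 2 of these 6 stayed called, Gstp1 at ZT16 and ZT22, and Gstp1 at ZT10 was also called. The 4 calls of Gsta3 and Gstt1 against RevDKO were lost (limma adjusted p from 0.159 to 0.282), and 6 of the 14 against Control were kept. Macrophage markers in the hepatocyte libraries also differed between times, with a mean log2 level going from 4.79 at ZT4 to 7.40 at ZT22 in Control.

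Daily rhythms were sought with JTK_CYCLE, which compares the order of the values with cosine curves, on each series entered 2 times as the study did. Entering a series again makes p smaller without adding data. The p-values were adjusted over 7 patterns of period and phase and not over genes. In Control hepatocytes Gstt2, Gsta4 and Gstm4 were rhythmic, beside 29% of all genes tested. Gstt2 went from 107 ± 16.4 RPKTM at ZT4 and 104 ± 1.92 at ZT10 to 66.4 ± 16.9 at ZT16 and 51.1 ± 22.5 at ZT22. Gsta4 peaked at ZT10 with 79.9 ± 21.5 and was lowest at ZT22 with 40.3 ± 12. In RevDKO hepatocytes Gsta3 and Gstt2 were rhythmic (29.7% of genes), and in RevScapTKO Gsta3, Gsta4 and Gstp1 (20.8%). Gstp1 in RevScapTKO went from 737 ± 314 RPKTM at ZT4 to 1435 ± 190 at ZT16, where RevDKO stood at 386 ± 93.7.

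Entering each series once left Gstt2 in Control, Gsta3 in RevDKO and Gstp1 in RevScapTKO hepatocytes as the rhythmic members, beside 10.9%, 9.22% and 2.91% of genes. The test of a changed rhythm called no member in RevDKO against Control, RevScapTKO against RevDKO or RevScapTKO against Control (limma F test over 24-hour cosine terms, 0.203%, 0% and 0.188% of genes called). The smallest unadjusted limma p among members was 0.00231, for Gstp1 in RevScapTKO against RevDKO, with an adjusted p of 0.919. A gene rhythmic in 1 genotype and not in another is therefore not shown to differ between them.

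**Figure D4:**
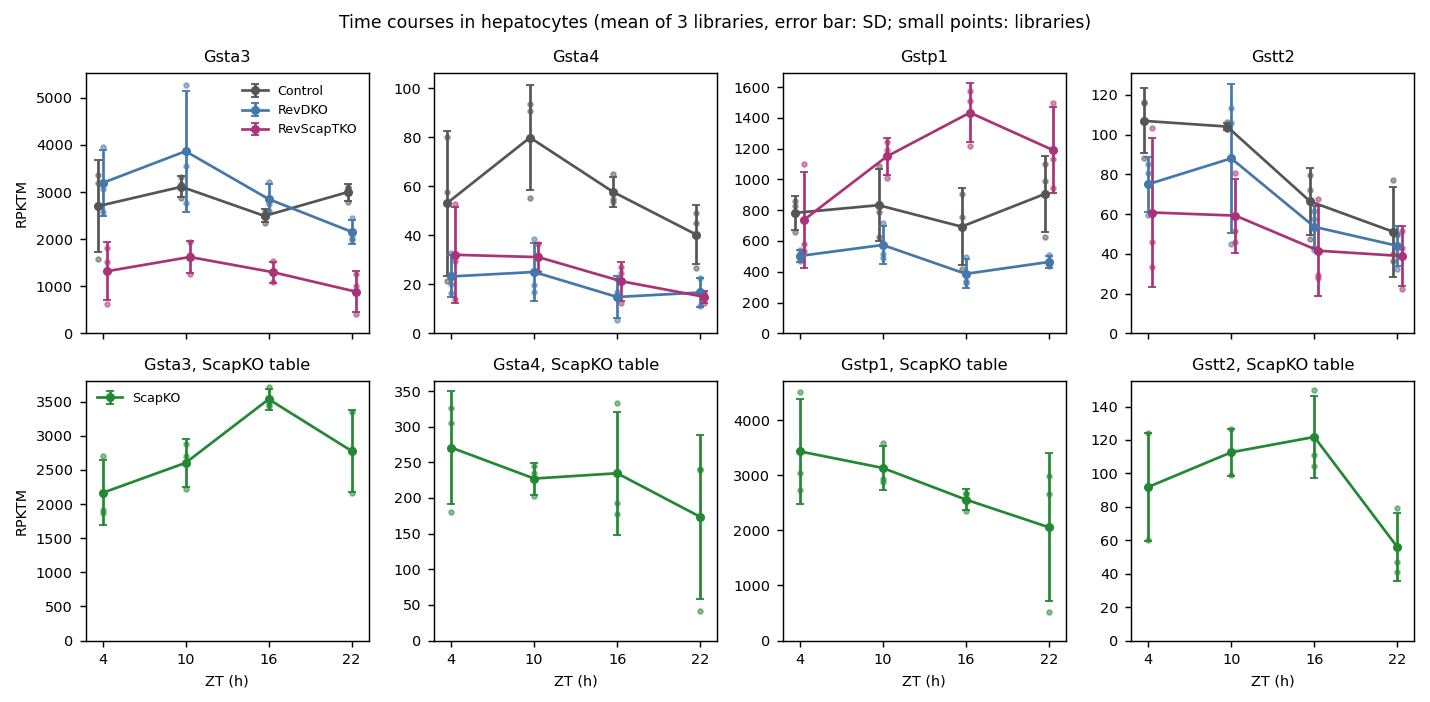
RPKTM of Gsta3, Gsta4, Gstp1 and Gstt2 in hepatocytes against ZT in hours (large points, mean of 3 libraries; error bars, SD; small points, libraries), with Control, RevDKO and RevScapTKO in the upper row and ScapKO, normalized apart, in the lower row. Gstt2 falls from ZT4 and ZT10 to ZT22 in Control, and Gstp1 in RevScapTKO is highest at ZT16.

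In liver macrophages the same genes were read at lower levels within their own table. Gsta3 averaged 387 ± 111 RPKTM (SD, n = 12) in Control, Gstp1 131 ± 55.6 and Gstm1 96.6 ± 26.1, the same leading order as in Control hepatocytes, and the other members averaged 44.6 or less. The class shares were 16.3% ± 2.69 for mu and 56.7% ± 5.30 for alpha. Hepatocyte markers were present in every macrophage library, at a higher mean log2 level than the macrophage markers. The hepatocyte markers were at 12.1 in Control, 12.1 in RevDKO and 11.9 in RevScapTKO. The macrophage markers were at 9.88 ± 0.91, 9.32 ± 0.91 and 9.40 ± 0.82. How much of the transferase signal in these libraries came from hepatocyte RNA was not tested, which limits every macrophage result below.

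In RevDKO against Control macrophages no member was called by limma, 5 had an unadjusted p under 0.05, and 0.574% of 13947 genes were called. Gstm2 came nearest, with medians of 6.47 RPKTM (2.80 to 11.8) in Control and 21.2 (0 to 41.3) in RevDKO and a log2 difference of 1.3 ± 0.36 (limma adjusted p = 0.0875). The RevDKO ZT10 replicate 2 library stood apart, with Gstm2, Gstm3 and Gstm4 at 0 and Gstm1 at 19.3 RPKTM, while its Gsta3 was at 533. Without it Gstm2 passed (1.64, limma adjusted p = 0.0018), and it also passed without Control ZT22 replicate 3 (limma adjusted p = 0.0466) and with a pseudocount of 10 (0.0108). Gstp1 was at 82.1 ± 31.3 against 131 ± 55.6 RPKTM (limma adjusted p = 0.0971) and passed only without Control ZT22 replicate 1 (limma adjusted p = 0.0299).

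RevScapTKO macrophages differed from RevDKO in 5 members, beside 3% of genes (1.23% higher and 1.78% lower): Gstm3, Gstm1 and Gstp1 were higher, and Gsta3 and Gstt1 lower. Gstm3 ran from 0 to 30.0 RPKTM (median 12) in RevDKO and from 6.51 to 428 (median 63.4) in RevScapTKO, a log2 change of 2.79 ± 0.55 (limma adjusted p = 0.00173). Gsta3 fell from 475 ± 112 to 207 ± 72.8 RPKTM, by 1.24 on the log2 scale (SE 0.19, limma adjusted p = 4.81e-05), and 11 of 12 libraries lay below every RevDKO library. Gstp1 rose by 0.96 ± 0.18 (limma adjusted p = 0.000914) and Gstt1 fell by 1.23 on that scale (SE 0.27, limma adjusted p = 0.00612). Gstm1 rose by 1.14 ± 0.32 (limma adjusted p = 0.0407), a call lost in 16 of 36 fits without 1 library (up to 0.0988). Those were all 3 RevDKO libraries at ZT22, replicates 1 and 3 at ZT4, 2 at ZT10, 1 and 2 at ZT16, and every RevScapTKO replicate 2 and 3. The Gstm1 call was also lost with a pseudocount of 0.1 (0.0569), with no filter (0.0851) and with only the 2 genotypes compared (0.0912). Gsta2 passed without RevDKO ZT16 replicate 3 or RevScapTKO replicate 1 at ZT10, ZT16 or ZT22 (limma adjusted p at most 0.0488), and Gstm4 without RevDKO ZT16 replicate 3 (0.0311). Gsta2 was very low, at 0.39 ± 0.84 RPKTM in RevDKO (at most 2.55) and 3.06 ± 2.72 in RevScapTKO. It was over 5 RPKTM in 5 of 36 libraries, none of them RevDKO, and so passed the filter chiefly through RevScapTKO. Its passes are therefore no support for a difference.

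Against Control macrophages 5 members were called in RevScapTKO, beside 3.76% of genes (2.38% higher and 1.38% lower). Gstm3 (4.11 ± 0.55), Gstm1 (1.81 ± 0.32) and Gstm4 (1.71 ± 0.43) rose, and Gstt1 (-1.39 ± 0.27) and Gsta3 (-0.91 ± 0.19) fell. In Control macrophages Gstm3 averaged 3.60 ± 3.31 RPKTM (0 to 10.2) and Gstm4 3.59 ± 2.49 (0 to 6.72). At ZT4 Gstm3 was at 3.91 ± 3.92 in Control (0 to 7.83). The log2 sizes for these genes therefore rest on low Control levels and on the pseudocount. The Gstm4 call was lost with a pseudocount of 0.1 (limma adjusted p = 0.0959) and with no filter (0.0572). Gstm2 (1.15 ± 0.36, limma adjusted p = 0.0632) passed without RevDKO ZT10 replicate 2 or 3 (0.0116 and 0.0475), which enter the fit through its shared spread. It also passed with a pseudocount of 10 (0.0347), with the hepatocyte marker level in the fit (0.0466) and with only the 2 genotypes compared (0.0217). By time, 2 pairs passed, Gstm3 (5.29) and Gstm1 (2.84) at ZT4, beside 0.213% of all pairs, against none in RevDKO against Control (0.0323%) and none in RevScapTKO against RevDKO (0.21%). The hepatocyte markers had 1 of 10 called in this contrast and 1 of 10 against RevDKO, each lower. With their level as a covariate the 5 calls were kept in both contrasts. Gstm2 was then also called against Control, and Gstm4 and the very low Gsta2 against RevDKO. The covariate follows the amount of hepatocyte RNA and cannot account for a genotype difference carried in that RNA. The kept calls therefore do not show which cells the difference came from.

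**Figure D5:**
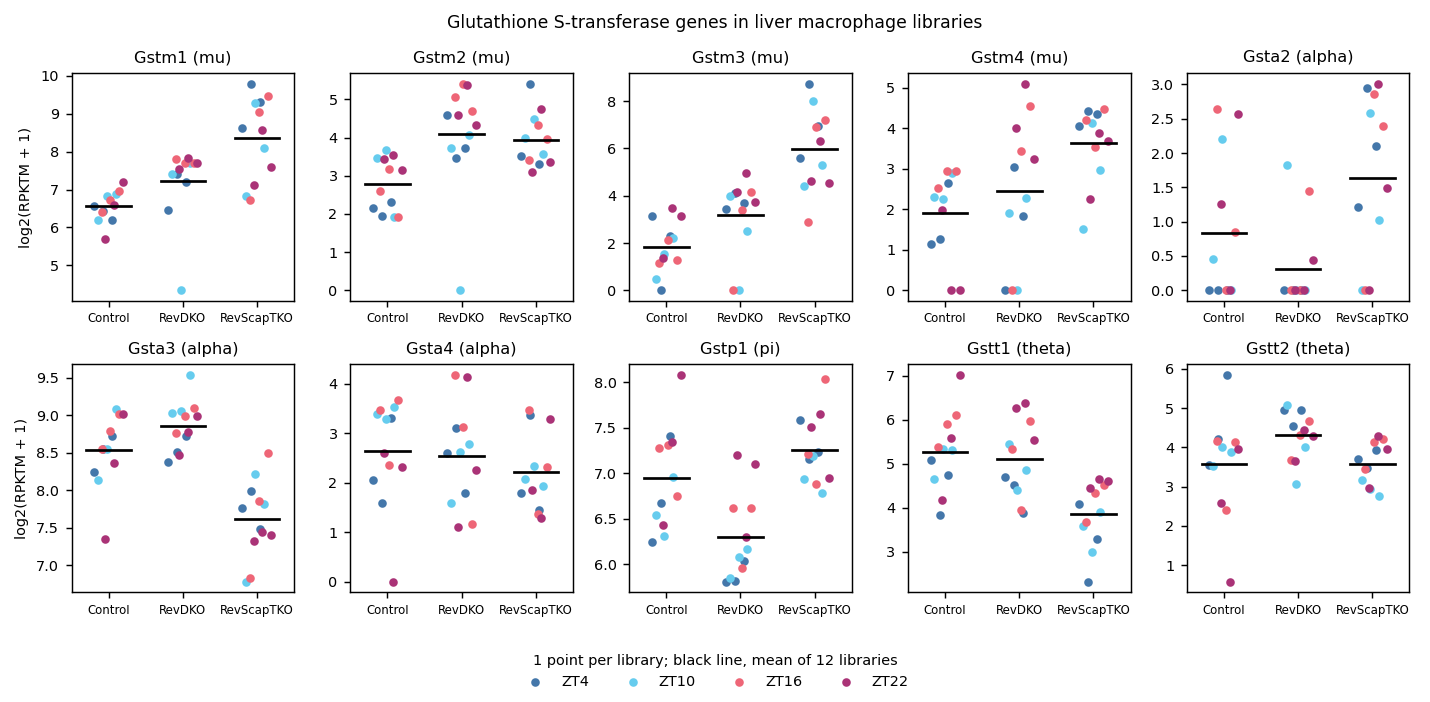
Level of each of the 10 genes in liver macrophages, as log2(RPKTM + 1), in the 12 libraries of Control, RevDKO and RevScapTKO, with 1 point per library coloured by time and a black line at the mean. Gstm3 has 11 of 12 RevScapTKO points above all Control points, and Gsta2 lies at or near 0 in most libraries.

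Replicate 2 of RevScapTKO was high in both cell types. Gstm3 in macrophages was 428 RPKTM in replicate 2 against 47.5 and 124 at ZT4, and 254 against 20.1 and 38.3 at ZT10, the times at which the hepatocyte replicate 2 libraries were highest. The labels do not say whether hepatocytes and macrophages of the same number came from the same mouse.

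JTK_CYCLE called 3 members in Control macrophages (20.2% of genes), 7 in RevDKO (28.2%) and 2 in RevScapTKO (15.4%). The 7 were the 4 mu genes, Gsta3, Gstp1 and Gstt1, and 6 of them peaked between ZT19 and ZT22. Without 1 library the Gstt1 call held in 2 of 12 fits and the Gstm3 call in 8, while each of the others held in 11 or 12. Limma cosine terms called none of the 7. With each series entered once Gstm1 in RevDKO was the single call, beside 2.84%, 5.59% and 2.34% of genes, and the hepatocyte marker level in RevDKO macrophages also varied over the day, from 11.7 at ZT4 to 12.5 at ZT22. No member had a changed rhythm in macrophages (0% of genes called).

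ScapKO hepatocytes had Gstm1 at 2834 ± 820.2 RPKTM (SD, n = 12), Gstp1 at 2795 ± 914 and Gsta3 at 2769 ± 632, with overlapping ranges, and Gstt1 at 603 ± 133. The mu, alpha and pi shares were near one another, 32.0% ± 6.30, 32.3% ± 7.81 and 28.3% ± 7.96. The ZT22 replicate 2 library stood apart, with Gstp1 at 514 and Gsta4 at 40.9 RPKTM against at least 2343 and 178 in the other 11, and with the highest endothelial marker level (9.0 against at most 7.56). Without it Gstp1 averaged 3003 ± 593 and Gstm1 2980 ± 678 (SD, n = 11), and the mu, alpha and pi shares were 32.2%, 30.9% and 29.9%. Gsta3, Gstm1, Gstp1 and Gstt2 were rhythmic, beside 19.1% of genes, and Gsta3 went from 2163 ± 474 at ZT4 to 3535 ± 151 at ZT16. Only Gsta3 was called with the series entered once (4.75% of genes). In ScapKO macrophages Gsta3 (536 ± 382), Gstm1 (507 ± 318) and Gstp1 (414 ± 142) led, 9 of 10 members passed the filter, and Gstm3 was the rhythmic member, beside 21.4% of genes and with none called once the series was entered once (3.35%).

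Other genes of the family and of glutathione metabolism gave context. Of 12 further glutathione transferases tested in hepatocytes 3 were called in RevDKO against Control, beside 4.43% of all genes, with a median log2 change of 0.06 beside -0.01 for all genes. Gstm7 (1.2 ± 0.15) and Gstm6 (1.13 ± 0.18), which neighbour the 4 mu members, rose, and Gstt3, a theta gene, fell (-0.89 ± 0.21). In RevScapTKO Gstm6 and Gstm7 were lower than in RevDKO (-1.21 ± 0.18 and -1.04 ± 0.15), whereas Gstm1 and Gstm3 were higher. Gstt3 fell from 119 ± 48.6 RPKTM in Control to 62.2 ± 22.5 in RevDKO and 13.7 ± 7.74 in RevScapTKO, the same order as Gstt1.

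Among 16 tested genes of glutathione synthesis and use, 2 fell in RevDKO hepatocytes beside 2.43% of all genes, Gpx1 (-0.71 ± 0.15), the peroxidase that spends glutathione on hydrogen peroxide, and Oplah (-0.43 ± 0.12). In RevScapTKO against RevDKO 5 of the 16 were called, near the 26.2% over all genes. All 5 were higher, among them Gclc (0.76 ± 0.15), the rate-limiting subunit of glutathione synthesis, and Slc7a11 (2.32 ± 0.36), which imports cystine and averaged 6.39 RPKTM in RevScapTKO. Of 20 targets of NRF2, a regulator of antioxidant genes, none was called in RevDKO, and 10 rose and 3 fell in RevScapTKO against RevDKO, beside 13.5% higher and 12.7% lower over all genes, with a median log2 change of 0.65 beside -0.03 for all genes. Srxn1 (1.54 ± 0.28) and Ephx1 (0.88 ± 0.13) rose, and Me1 (-1.77 ± 0.24) and Tkt (-1.05 ± 0.10) fell. The NRF2 list and that of glutathione synthesis and use share genes, Gclc and Slc7a11 among them, so their counts are not separate. Of 15 targets of the xenobiotic receptors CAR and PXR, 2 rose and 5 fell in RevDKO against Control, beside 2% and 2.43% of all genes, including Cyp3a11 (-2.14 ± 0.39), and Cyp3a11 was higher again in RevScapTKO than in RevDKO (2.2 ± 0.39). Of 16 tested regulators of xenobiotic and stress responses, 2 were called in RevDKO against Control, beside 4.43% of all genes. These were Cebpb and Nr1i3, which encodes CAR. In RevScapTKO against RevDKO 4 of the 16 were called, beside 26.2%.

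The rise of macrophage, endothelial and stellate markers in RevScapTKO hepatocytes went along with these lists as well. With the macrophage marker level in the fit, 2.6% of all genes were called in RevScapTKO against RevDKO, and 3 of the 13 called NRF2 targets were kept, Ephx1, Me1 and Tkt. None of the 5 called genes of glutathione synthesis and use was kept, nor was Cyp3a11, whereas Gstm6, Gstm7 and Gstt3 were. None of the 4 regulators called in RevScapTKO against RevDKO was kept. In RevDKO against Control every call of these lists was kept, among them Cebpb and Nr1i3, both lower in that fit.

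Over the 36 hepatocyte libraries Gstm3 followed Gstm1 with a Pearson r of 0.94, the highest among member pairs, and this pair shares windows of sequence. Gstm3 ran against Gstt1 with r of -0.77. Outside the family, Gstm3 was most like Srxn1 (r = 0.89), Gsta3 was most like Idh1 (r = 0.92), and Gstt1 was most like Mpst and Gstt3 (r = 0.92 each). These values describe libraries that share genotypes and times.

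Promoters were available for 8 of the 10 genes in the RefSeq table (GRCm38.p6), 10 windows in all from 250 bases before to 50 after the start, and not for Gsta4 and Gstt2. On both strands they were searched for the core of the antioxidant response element (TGACNNNGC), through which NRF2 acts, for the REV-ERB element ANTAGGTCA, the E-box CACGTG and the sterol element TCACNCCAC. Only Gsta3 held a match, to the antioxidant core at -121 to -113, a motif found in 12.4% of 32851 promoters of this length. The other motifs occurred in 0.661%, 7.15% and 1.24% of promoters. Gsta3 is shown from 200 bases before the start to the last base before it, with the match in capitals.
Gsta3 (chr1:21240385-21240584, plus strand, GRCm38.p6): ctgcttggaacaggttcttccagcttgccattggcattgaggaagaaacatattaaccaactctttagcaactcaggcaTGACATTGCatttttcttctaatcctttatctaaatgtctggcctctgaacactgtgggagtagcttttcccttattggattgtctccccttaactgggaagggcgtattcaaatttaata
The match describes letters in this window and not binding. Other forms of the motifs named here were not searched, so a promoter without a match may still hold one.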

How the data were processed

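RNA was measured in 96 libraries, 3 for each of 32 groups. Per the labels and methods, the authors made stranded libraries from RNA depleted of ribosomal RNA. STAR, HOMER and the mm9 build are named in the submitters' processing notes. The versions and the strand setting are not given in the sources used here. The deposited values are RPKM on another scale of mapped reads (RPKTM), quantile normalized within each of 4 tables, so sorted values are the same in every library of a table and depth is unknown. All value columns mapped to a sample (0 left out), and columns of the authors' own comparisons were not used.

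Each gene was taken at its transcript of highest mean, out of 42322. Values were tested as log2(RPKTM + 1) with limma 3.58.1 in R 4.3.3 (mean-variance trend, 1 mean per genotype and time, genes over 5 RPKTM in at least 3 libraries, threshold 0.05), which understates changes of low genes. Rhythms used JTK_CYCLE rebuilt in Python 3.11.15 (periods of 18 and 24 h, a ratio of time means of at least 1.5, and over 5 RPKTM in at least 2 libraries), and limma cosine terms. Both were tested on simulated data. The paper describes RNA from biological replicates, but nothing in the labels says that replicates were separate mice. The p-values therefore measure the spread between these libraries.

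The genes, the gene lists and the tests were chosen with earlier results of these data known. All 10 members were named, at most 4 genes per list and comparison (smallest p), and the 3 genes most like each member. Gstm4 was read from another transcript in the ScapKO tables and Gsta3 from another in the macrophage table. Shared windows used GENCODE M1 protein-coding transcripts, with a single transcript for each member that can differ from the one read for its level. For Gsta3 the windows came from a transcript of 1157 bases and the hepatocyte level from one of 1505. Biopython 1.88 aligned coding sequences.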

Additional observations from a re-analysis of the deposited data

How the results depend on the processing

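Settings were pseudocounts of 0.1 and 10, no filter, a filter at 20 RPKTM, only the 2 genotypes compared, all transcripts fitted, a replicate block, the marker level as covariate, and each library left out. Of 828 values of the 23 mean-level calls in hepatocytes, with 1 library left out each time, 815 stayed called, as did 173 of 184 under the other settings. In macrophages 344 of 360 and 75 of 80 did. The calls by time held less often, in 765 of 828 and 158 of 184 for the 23 in hepatocytes and in 64 of 72 and 12 of 16 for the 2 in macrophages. None of these values changed sign. The marker level was entered for the gene lists, and the ScapKO levels taken without 1 library, after seeing the data. Depth is unknown, so no counting error can be given.

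In hepatocytes, members called in RevDKO against Control numbered 5 with no filter (8 in the report), and calls by time 1 with no filter and 9 with only the 2 genotypes (3 in the report). With the marker level, members called in RevScapTKO against RevDKO numbered 2, and calls by time 3, with 6 against Control. In macrophages, RevDKO against Control had 1 member called with a pseudocount of 10, and RevScapTKO against Control had 0 calls by time with a pseudocount of 0.1 and with no filter. With each series entered once, 1 member was rhythmic in Control, RevDKO, RevScapTKO and ScapKO hepatocytes each and in RevDKO macrophages, and 0 in the other macrophage series. With limma cosine terms 1 was rhythmic in Control hepatocytes (Gstt2) and 0 in all other series. The causes of these changes were not tested.

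Same-numbered libraries were not taken as pairs, since the labels give no shared mouse or batch and most pairs correlated weakly. Their deviations correlated from -0.14 to 0.28 (median 0.048) in hepatocytes and from -0.20 to 0.37 (median 0.088) in macrophages, 13 and 15 of 36 pairs over 0.1, and 42 of 72 compared libraries in each cell type correlated best with their own number, where 1 in 3 would if numbers were arbitrary. This is a hint of pairing from the data and not from the labels. The paper states that Control, RevDKO and RevScapTKO mice were killed in alternation at each time, without tying this to replicate numbers. With the replicate block, Gstm2 was called in RevScapTKO against RevDKO hepatocytes (limma adjusted p = 0.0216) and in RevScapTKO against Control macrophages (0.0481), no other mean-level call of a member changed, and calls by time were 6 in RevDKO against Control hepatocytes and 2 in RevScapTKO against RevDKO macrophages.

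With 1 library left out, members called ranged from 6 to 8, 5 to 7 and 9 to 9 in hepatocytes (RevDKO against Control, RevScapTKO against RevDKO, RevScapTKO against Control) and from 0 to 1, 4 to 7 and 5 to 6 in macrophages. Calls by time ranged from 1 to 6, 5 to 9 and 11 to 16 in hepatocytes and from 0 to 1, 0 to 2 and 0 to 4 in macrophages. The 3 calls by time in RevDKO hepatocytes became 1 without Control ZT16 replicate 2 or 3 or RevDKO ZT16 replicate 3, 5 without RevScapTKO ZT4 replicate 3, and 6 without Control ZT4 replicate 3 or RevScapTKO ZT4 replicate 2. The 2 in RevScapTKO against Control macrophages became 0 or 1 without any 1 Control ZT4 library or RevScapTKO ZT4 replicate 2 or 3, and 4 without RevScapTKO ZT16 replicate 1. The count of 0 became 1 or 2 in RevDKO against Control macrophages without Control ZT22 replicate 1 or 3, and in RevScapTKO against RevDKO without these or RevScapTKO ZT10 replicate 2 or ZT16 replicate 1.

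Rhythmic members ranged from 2 to 6 in Control (6 without ZT4 replicate 3), 1 to 3 in RevDKO (1 without ZT10 replicate 3 or ZT22 replicate 1), 1 to 4 in RevScapTKO (1 without ZT10 or ZT22 replicate 2) and 2 to 5 in ScapKO hepatocytes (2 without ZT22 replicate 2). In macrophages they ranged from 3 to 4 in Control, 4 to 7 in RevDKO (4 without ZT10 replicate 3), 1 to 3 in RevScapTKO (1 without ZT10 replicate 2 or 3) and 0 to 2 in ScapKO, where 6 libraries each brought the count to 0.

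Signs turned only in values that were not called. In macrophages Gsta4 in RevDKO against Control became 0.056 and Gstm2 in RevScapTKO against RevDKO 0.085 with a pseudocount of 0.1, and Gstt2 in RevScapTKO against Control -0.092 with a pseudocount of 10. Without 1 library these ranged from -0.30 to 0.11, -0.48 to 0.028 and -0.22 to 0.20. In RevDKO against Control, Gstt1 ranged from -0.34 to 0.016 in macrophages and Gsta3 from -0.021 to 0.12 in hepatocytes, and Gstm4 in RevScapTKO against RevDKO hepatocytes from -0.21 to 0.023.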

Other observations

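In ScapKO the ZT22 replicate 2 library also stood apart in macrophages, with an endothelial marker level of 10.5 against at most 8.65 in the other 11 and a macrophage marker level of 10.4 against at least 11.9. Whether the hepatocyte and macrophage libraries of that number came from the same mouse is not given in the labels.

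Cyp3a11, a drug-metabolizing cytochrome P450, was lower in RevDKO than in Control in libraries of both cell types. In hepatocytes it was at 296 ± 62.0 against 1614 ± 1214 RPKTM (SD, n = 12). In macrophage libraries it was at 28.3 ± 27.0 against 149 ± 153 (log2 change -2.59 ± 0.54, called by limma). How much of the signal in macrophage libraries came from hepatocyte RNA was not tested. Of the 20 NRF2 targets, none was called in RevDKO against Control macrophages, 4 in RevScapTKO against RevDKO and 5 in RevScapTKO against Control, beside 0.574%, 3% and 3.76% of all genes, with Srxn1 higher by 1.48 ± 0.28 and 1.77 ± 0.28 and Gclc by 1.04 ± 0.23 and 1.21 ± 0.23.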
